A study of Homo sapiens with 8 samples.

Results

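Of the 24462 genes in the count table, 39 encode enzymes and carriers of fatty acid oxidation or proteins of the peroxisome, and their transcript levels are described here in HepG2 cells that overexpress EDN1 and in mock cells. The 39 genes were taken by symbol from a fixed list and comprise 18 genes acting in mitochondria, 20 genes of the peroxisome and PPARA, a nuclear receptor that regulates both groups. HepG2 is a human liver cancer line, and EDN1 is the gene of endothelin-1, a peptide that cells release and that makes blood vessels contract. The EDN1 overexpression group held 4 libraries and the mock group 4. Both were grown in DMEM with fetal bovine serum and antibiotics and received no other treatment. The sources used here do not say how EDN1 was introduced, what the mock cells carried, or whether the libraries were made from separate cultures. The p-values therefore measure only the spread among these libraries, which may be technical. QuantSeq libraries read tags near the polyadenylated end of transcripts, so levels are given as CPM (counts scaled to a common library total) and are compared for a gene between libraries, not between genes.

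Long-chain fatty acids enter mitochondria as carnitine esters and are then shortened in repeated rounds of dehydrogenation, hydration, a second dehydrogenation and thiolysis. Peroxisomes shorten very long and branched chains by parallel steps that yield hydrogen peroxide, which catalase destroys. Peroxins, the PEX proteins, build the organelle and import its enzymes, and PPARA, paired with RXRA, switches on many of these genes in liver.

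The libraries held 8409173 to 14932385 counts. EDN1 counts were 2803, 2284, 4764 and 4752 in EDN1 overexpression 1 to 4 and 29, 9, 9 and 20 in mock 1 to 4, so each library matched its label. Summed hepatocyte markers (ALB, AFP, APOB and 6 others, of which all 9 passed the filter) ran from 5636 to 7761 CPM in EDN1 overexpression and from 5651 to 7925 CPM in mock. The sum is weighted to genes with many counts, since the highest count in a library was 68944 for APOB and 546 for FGB. The log2 fold changes of the 9, EDN1 overexpression over mock, ran from -0.79 to 0.14, with 4 positive and 5 negative. Similar sums therefore do not mean that each marker was even. Summed fibroblast markers, 6 genes with LUM at 0 in every library, ran from 4.19 to 7.70 CPM in EDN1 overexpression and from 4.99 to 8.70 CPM in mock. Summed blood and endothelial markers, 7 genes, ran from 9.84 to 19.4 CPM in EDN1 overexpression and from 7.78 to 14.2 CPM in mock, mostly from CD68, while PTPRC, CDH5 and VWF had at most 1 count. When all tested genes were clustered without the labels, EDN1 overexpression 3, EDN1 overexpression 4 and mock 4 stood apart from the other 5 libraries. They are called the second library set here and the others the first set. No label names a batch, and because the sets were found in these same counts, differences between them are described without a test.

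Several sequences are shown first because the results return to their genes. RefSeq promoter windows (GRCh38.p14, 250 bases before each start) were matched by symbol for 32 of the 39 genes. The CAT and PEX11A promoters belong to the pair of genes with the smallest p-values. The interval before HADHB also lies before HADHA, its partner in the mitochondrial trifunctional protein. In the first 3 sequences capitals mark GGGCGG (a GC box) or CCAAT on either strand, and in the last 3 they mark, on either strand, a pair of AGGNNA copies with 1 base between them. This is a loose form of the spaced AGGTCA repeat that PPARA with RXRA recognises.
CAT, chr11:34438784-34438933, plus strand, the 150 bases before the start: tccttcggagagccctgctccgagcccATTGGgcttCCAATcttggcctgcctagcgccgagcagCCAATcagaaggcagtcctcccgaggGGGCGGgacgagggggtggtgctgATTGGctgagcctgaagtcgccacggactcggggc
PEX11A, chr15:89690755-89690904, minus strand, the 150 bases before the start: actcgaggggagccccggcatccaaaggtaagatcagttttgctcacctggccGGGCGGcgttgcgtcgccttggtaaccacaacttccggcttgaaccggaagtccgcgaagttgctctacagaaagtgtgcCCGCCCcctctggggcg
HADHB, chr2:26244689-26244938, plus strand, the 250 bases before the start: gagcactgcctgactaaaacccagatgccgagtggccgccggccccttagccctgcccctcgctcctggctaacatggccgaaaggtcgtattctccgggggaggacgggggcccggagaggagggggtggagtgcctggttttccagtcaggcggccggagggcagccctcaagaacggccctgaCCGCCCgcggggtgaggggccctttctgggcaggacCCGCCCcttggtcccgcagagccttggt
ACAA2, chr18:49813587-49813619, minus strand: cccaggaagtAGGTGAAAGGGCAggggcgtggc
ECHS1, chr10:133373365-133373397, minus strand: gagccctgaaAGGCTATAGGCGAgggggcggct
PEX6, chr6:42979242-42979274, minus strand: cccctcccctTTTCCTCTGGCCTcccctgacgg

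The CAT stretch holds CCAAT 4 times and GGGCGG once, and the PEX11A and HADHB stretches hold GGGCGG 2 times each and no CCAAT. The GC box GGGCGG occurred in 27 of the 32 promoters (84.4%), against 74.4% of the 9288 tested genes with a promoter entry. CCAAT occurred in 10 of 32 (31.2%), against 41.8%. The exact repeat, a pair of AGGTCA copies with 1 base between them, was in 0 of 32 and in 0.0323% of the tested genes' promoters. A lone AGGTCA was in 0 of 32, against 12.3%. The loose repeat, which any exact repeat also matches, was in 3 of 32 (9.38%), against 2.62%. These are letter matches within 250 bases, and a window without a match says nothing about binding elsewhere.

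The comparison asked whether EDN1 overexpression changed the transcripts of fatty acid oxidation and of the peroxisome. After a filter on low counts, 35 of the 39 genes were tested in a model fitted over all 12577 genes that passed. By the quasi-likelihood test of edgeR, 0 of the 35 passed a Benjamini-Hochberg adjusted p of 0.05, while 1 of all tested genes (0.00795%), EDN1 itself, was called higher and 0 were called lower. In DESeq2 and in limma voom, 0 of the 35 passed as well. At an unadjusted p under 0.05 there were 2 of 35, CAT and PEX11A, against 2.85% of all tested genes. The EDN1 overexpression and mock libraries did not overlap in 1 of the 35, CAT, which was higher. Of all tested genes 2.04% did not overlap, 1.38% higher and 0.668% lower, so 1 of 35 is near the background.

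The 16 tested mitochondrial genes had a median log2 fold change of 0.019, with 9 positive and 7 negative. The 18 tested peroxisomal genes had a median of -0.0094, with 7 positive and 11 negative. All tested genes had a median of 0.00099, and 50.3% of them were positive. For 30 of the 35 genes the 95% interval held no change as large as 2-fold up or down (85.7%, against 79.4% of all tested genes), and for 17 it held none as large as 1.5-fold (48.6%, against 38.2%). The intervals that reached beyond 2-fold were those of CAT, ACADVL, DECR1, PEX10 and PEX6. A gene that missed the threshold is not shown to be equal in both groups.

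**Figure D1:**
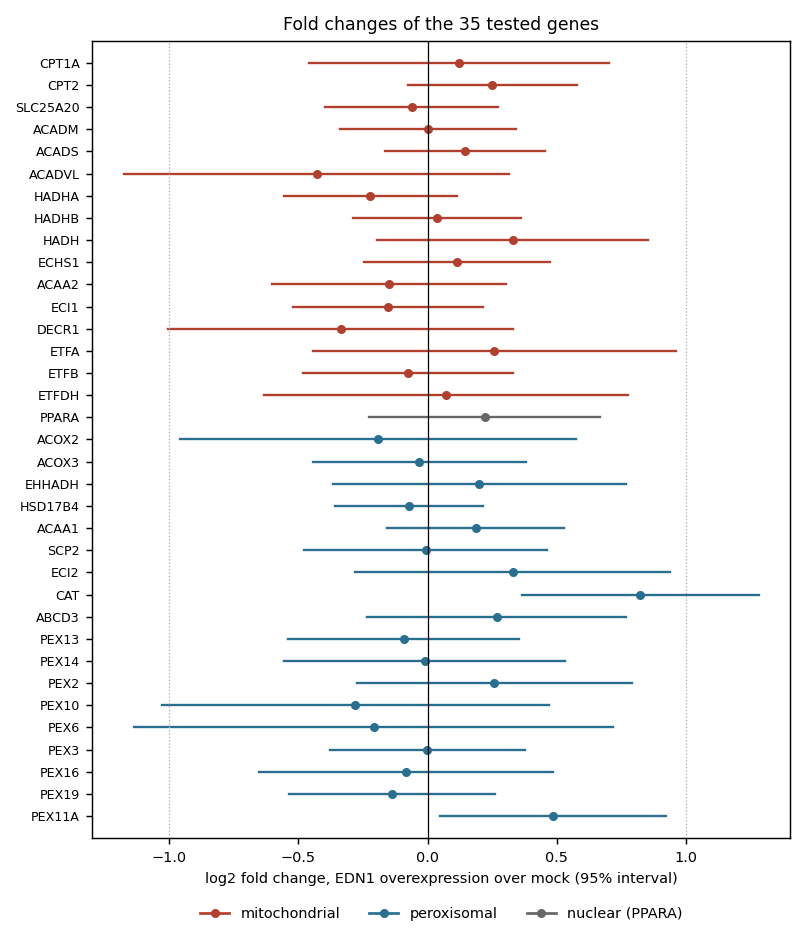
Log2 fold change of each of the 35 tested genes, EDN1 overexpression over mock, with its 95% interval from edgeR (4 libraries per group). Points are mitochondrial, peroxisomal or PPARA by colour, and dotted lines mark a 2-fold change. All intervals except those of CAT (0.37 to 1.28) and PEX11A (0.049 to 0.92) include 0.

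Catalase, the enzyme that breaks down the hydrogen peroxide of peroxisomal oxidation, had the smallest p of the 39 genes. CAT had 22.9, 19.1, 29.2 and 25.3 CPM in EDN1 overexpression 1 to 4, against 11.2, 14.0, 11.4 and 17.9 CPM in mock 1 to 4. Every EDN1 overexpression library was above every mock library, and the highest mock value, in mock 4, lay close below the lowest EDN1 overexpression value. The means were 24.1 ± 4.26 CPM in EDN1 overexpression and 13.6 ± 3.14 CPM in mock (SD, n = 4 each), which is 1.77-fold, or 0.82 on the log2 scale (SE 0.21, 95% interval 0.37 to 1.28). Its unadjusted edgeR p was 0.00236, with 18 of the 12577 genes at or below it, and its adjusted p was 1. Over 18 alternatives the adjusted p of CAT ranged from 0.275, in DESeq2, to 1. In bulk libraries such as these, a lower level in every cell and fewer cells with the transcript cannot be told apart.

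The CAT log2 fold change was positive in every alternative, from 0.60 in the second library set alone to 0.99 without mock 4. Leaving out single libraries gave log2 fold changes from 0.72, without EDN1 overexpression 3, to 0.99, without mock 4. Within the first library set it was 0.79 (SE 0.21) and within the second, where a lone mock library has to stand for its group, 0.60 (SE 0.43). CAT was also higher in the second set than in the first, by 0.46 on the log2 scale with the group as a term. Of the 7 blood and endothelial markers, only CD68 passed the low count filter, while PTPRC, CDH5 and VWF had at most 1 count. The counts given next are not scaled to library totals, which were 9132441 in EDN1 overexpression 4 and 14932385 in mock 4. CD68 had 98, 112, 152 and 162 counts in EDN1 overexpression 1 to 4 and 94, 77, 60 and 164 in mock 1 to 4. Its log2 fold change was 0.58 (SE 0.27, edgeR p 0.0591 unadjusted and 1 adjusted) and its log2 difference between the second and first sets 0.59, both in the same direction as those of CAT. The hemoglobin gene HBB had 3, 1, 1 and 0 counts in EDN1 overexpression 1 to 4 and 0, 1, 1 and 34 in mock 1 to 4, and HBA1 had 3 to 8 counts in EDN1 overexpression and 3 to 11 in mock. The part of these markers in the CAT values was not tested.

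PEX11A, which encodes a membrane protein that elongates and divides peroxisomes, had the next smallest p. Its levels were 11.9, 9.30, 13.6 and 10.7 CPM in EDN1 overexpression 1 to 4, against 7.80, 6.92, 7.77 and 9.95 CPM in mock 1 to 4. The groups overlapped, since EDN1 overexpression 2 lay below mock 4. The means were 11.4 ± 1.81 CPM in EDN1 overexpression and 8.11 ± 1.29 CPM in mock (SD, n = 4 each), which is 1.40-fold, or 0.49 on the log2 scale (SE 0.20, 95% interval 0.049 to 0.92). The edgeR p was 0.0324 unadjusted and 1 adjusted. The log2 fold change was 0.50 in the first set alone and 0.28 in the second alone, and 0.39 to 0.60 with single libraries left out. For both CAT and PEX11A the highest value of each group was in the second library set, in EDN1 overexpression 3 and in mock 4.

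ABCD3, the peroxisomal membrane transporter that takes in acyl-CoA esters, had 48.3, 37.5, 66.2 and 65.7 CPM in EDN1 overexpression 1 to 4, against 38.9, 40.02, 39.99 and 61.8 CPM in mock 1 to 4. Its high libraries were EDN1 overexpression 3 and 4 and mock 4, the second library set, so the groups overlapped. The log2 fold change was 0.27 (SE 0.23) over all libraries, 0.12 in the first set alone and 0.082 in the second alone.

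**Figure D2:**
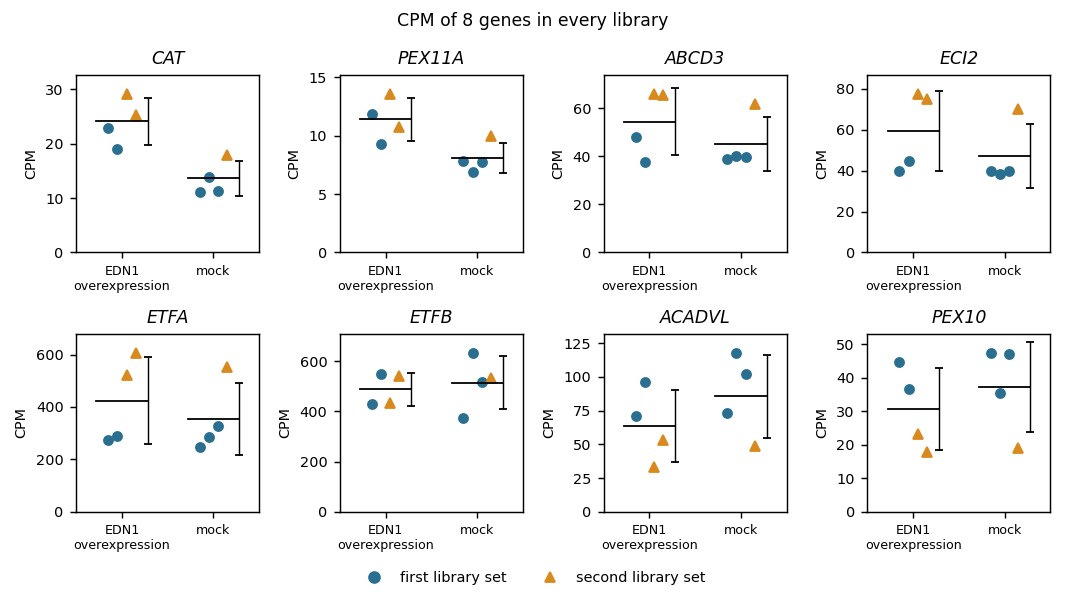
CPM of 8 genes in each library, EDN1 overexpression left and mock right, with the mean (line) and SD (bar, n = 4). Circles are the first library set and triangles the second. CAT separates the groups (19.1 to 29.2 against 11.2 to 17.9 CPM), whereas ECI2, ETFA and PEX10 separate the sets.

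The peroxisomal oxidation enzymes showed no common direction, with 3 of 7 fold changes positive. ACOX2 and ACOX3, the oxidases for branched-chain substrates, had log2 fold changes of -0.19 for ACOX2 (SE 0.35) and -0.031 for ACOX3 (SE 0.19). ACOX2 was at 5.12, 5.22, 2.19 and 3.12 CPM in EDN1 overexpression 1 to 4 and 5.15, 5.31, 4.98 and 2.56 CPM in mock 1 to 4. The 3 low values are again those of the second library set, and the log2 fold change was 0.0058 in the first set alone and 0.037 in the second alone. The bifunctional enzymes that follow the oxidases, EHHADH and HSD17B4, were at 0.20 for EHHADH (SE 0.26) and -0.073 for HSD17B4 (SE 0.13) on that scale. HSD17B4 was among the most even of the 39 genes, at 55.7 to 67.9 CPM in EDN1 overexpression and 60.9 to 67.6 CPM in mock.

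The peroxisomal thiolases end each round of oxidation. ACAA1, the thiolase for straight chains, averaged 106 ± 16.8 CPM in EDN1 overexpression and 92.9 ± 10.5 CPM in mock (SD, n = 4 each), with a log2 fold change of 0.19 (SE 0.15). SCP2, whose longer product is the thiolase for branched chains, averaged 30.7 ± 6.44 CPM in EDN1 overexpression and 30.8 ± 7.28 CPM in mock (SD, n = 4 each). ECI2, an isomerase that moves double bonds of unsaturated chains and is found in peroxisomes and mitochondria, had 40.02, 44.8, 77.7 and 75.1 CPM in EDN1 overexpression 1 to 4, against 39.96, 38.5, 39.9 and 70.3 CPM in mock 1 to 4. Its log2 fold change of 0.33 (SE 0.27) was 0.10 in the first set alone and 0.11 in the second alone. The EDN1 overexpression group holds 2 of the 3 libraries of the second set.

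Of the 11 peroxins 9 were tested, of which 2 had positive fold changes and 7 negative, with a median log2 fold change of -0.084. PEX3, PEX16 and PEX19, which insert proteins into the peroxisomal membrane, were at -0.0011 for PEX3 (SE 0.17), -0.084 for PEX16 (SE 0.26) and -0.14 for PEX19 (SE 0.18). PEX13 and PEX14, the docking sites for import receptors, were at -0.093 for PEX13 (SE 0.20) and -0.011 for PEX14 (SE 0.25). PEX2 and PEX10, ubiquitin ligases that recycle the receptor PEX5, were at 0.26 for PEX2 (SE 0.24) and -0.28 for PEX10 (SE 0.34), and the ATPase PEX6, which extracts it, at -0.21 (SE 0.42). PEX6 had its highest level, 8.40 CPM, in mock 2 and its lowest, 2.03 CPM, in mock 1, and without mock 2 its log2 fold change was 0.28.

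The import receptors themselves were nearly unread. PEX5, which carries most enzymes into the peroxisome, had 5, 0, 3 and 0 counts in EDN1 overexpression 1 to 4 and 0 in each mock library. PEX7, the receptor for a second class of enzymes, had 0 counts except 1 in mock 3. A count of 0 allows up to 3 counts, or 0.201 to 0.357 CPM depending on the library, with counting error only. Peroxisomal import needs PEX5 in every cell that has peroxisomes, so these counts are given as reads assigned to the gene in the table and not as its expression, and the cause was not tested.

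In the mitochondrial pathway the carnitine shuttle comes first. CPT1A, the outer membrane transferase that sets the rate of entry, had 101, 119, 62.9 and 93.4 CPM in EDN1 overexpression 1 to 4, against 69.9, 130.1, 87.0 and 60.0 CPM in mock 1 to 4. The groups overlapped over nearly their whole range, and the log2 fold change of 0.12 (SE 0.26) was -0.020 without mock 4 and 0.38 without mock 2. CPT2, the inner membrane transferase, had 22.9, 20.9, 21.9 and 20.1 CPM in EDN1 overexpression 1 to 4, against 20.6, 16.1, 18.1 and 17.3 CPM in mock 1 to 4. A single mock library, mock 1, lay above the lowest EDN1 overexpression library, and the log2 fold change was 0.25 (SE 0.15). Its unadjusted p was 0.121 in the edgeR test over all genes. The log2 fold change was 0.26 in the first set alone and 0.27 in the second alone. SLC25A20, the carrier that exchanges acylcarnitine for carnitine, was at -0.061 (SE 0.15) on the same scale.

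Among the dehydrogenases that open each round, ACADM (medium chains) and ACADS (short chains) were even across libraries. ACADM averaged 41.5 ± 5.31 CPM in EDN1 overexpression and 41.4 ± 4.94 CPM in mock (SD, n = 4 each), and the 95% interval of its fold change ran from -0.34 to 0.34 on the log2 scale. ACADS averaged 101 ± 10.7 CPM in EDN1 overexpression and 91.2 ± 9.51 CPM in mock (SD, n = 4 each). ACADVL, for very long chains, was the most negative of the 35 tested genes, with a log2 fold change of -0.43 (SE 0.34). It had 70.8, 96.4, 33.4 and 53.0 CPM in EDN1 overexpression 1 to 4, against 73.4, 118, 102 and 48.9 CPM in mock 1 to 4. The 3 lowest values are those of the second library set, and within the sets the log2 fold change was -0.22 in the first and -0.19 in the second. ACADL, the long-chain dehydrogenase, had 0 counts in all 8 libraries.

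The remaining steps are carried by the trifunctional protein and by single enzymes. HADHA and HADHB, its alpha and beta subunits, lie head to head on chromosome 2 with 307 bases between their annotated starts, so the interval printed above lies before both. HADHA had 179, 215, 152 and 165 CPM in EDN1 overexpression 1 to 4, against 186, 233, 211 and 198 CPM in mock 1 to 4. HADHB had 94.1, 88.8, 71.8 and 95.6 CPM in EDN1 overexpression 1 to 4, against 89.9, 86.5, 93.3 and 72.1 CPM in mock 1 to 4. For HADHA a single EDN1 overexpression library, the second, lay above the lowest mock library, while for HADHB the groups spanned nearly the same range. The log2 fold changes were -0.22 (SE 0.15) for HADHA and 0.036 (SE 0.15) for HADHB. The log2 ratio of HADHA to HADHB averaged 1.02 ± 0.21 in EDN1 overexpression and 1.28 ± 0.20 in mock (SD, n = 4 each), a gap about as large as the spread within a group.

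HADH, the dehydrogenase for shorter chains, had 23.6, 22.0, 24.2 and 14.8 CPM in EDN1 overexpression 1 to 4, against 22.4, 11.1, 15.9 and 17.8 CPM in mock 1 to 4. The groups overlapped because EDN1 overexpression 4 was low and mock 1 high, and the log2 fold change was 0.33 (SE 0.24). The hydratase ECHS1 and the thiolase ACAA2 were at 0.11 for ECHS1 (SE 0.16) and -0.15 for ACAA2 (SE 0.20). The helpers for unsaturated chains, ECI1 and DECR1, were at -0.15 for ECI1 (SE 0.17) and -0.34 for DECR1 (SE 0.30). DECR1, a reductase of double bonds, was at 42.3, 46.7, 23.9 and 26.2 CPM in EDN1 overexpression 1 to 4 and 51.2, 47.1, 55.1 and 22.7 CPM in mock 1 to 4. Its low libraries were once more the second set, and its log2 fold change was -0.20 in the first set alone and 0.13 in the second alone.

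Electrons of the first step pass through the flavoprotein formed by ETFA and ETFB and then through ETFDH to the respiratory chain. ETFA had 275, 290.0, 522 and 606 CPM in EDN1 overexpression 1 to 4, against 248, 286, 328 and 554 CPM in mock 1 to 4. The second library set held the 3 highest of the 8 values. The log2 fold change of ETFA was 0.26 (SE 0.32) over all libraries, but -0.024 in the first set alone and 0.017 in the second alone. ETFB had 428, 549, 433 and 541 CPM in EDN1 overexpression 1 to 4, against 374, 632, 517 and 532 CPM in mock 1 to 4. It followed neither the groups nor the sets, and its log2 fold change was -0.074 (SE 0.18). The log2 ratio of ETFA to ETFB, partners in 1 protein, was 0.060 to 0.27 in the second library set and -1.14 to -0.59 in the first. ETFDH was low, at 3.25 to 7.74 CPM in EDN1 overexpression and 3.25 to 5.68 CPM in mock.

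PPARA and PDK4 act on the pathway from outside. PPARA had 29.5, 28.2, 30.2 and 38.5 CPM in EDN1 overexpression 1 to 4, against 20.4, 34.0, 22.0 and 32.0 CPM in mock 1 to 4. The groups overlapped, with EDN1 overexpression 4 above the mock range and the other EDN1 overexpression libraries within it, and the log2 fold change was 0.22 (SE 0.20). PDK4, a PPARA target that keeps pyruvate out of oxidation, had 0, 0, 1 and 2 counts in EDN1 overexpression 1 to 4 and 0, 4, 0 and 0 in mock 1 to 4, and was not tested.

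The largest differences among the 35 tested genes lay between the library sets and not between EDN1 overexpression and mock. Because the sets were found in these same counts, large differences between them are favoured in advance, and the 2 comparisons are not on equal terms. The CPM of the 2 sets did not overlap in 9 of the 35 tested genes (25.7%), 3 higher and 6 lower in the second set. Of all tested genes 23.2% did not overlap, 9.83% higher and 13.4% lower, so the share is near the background. A log2 difference over 0.5 in size was seen in 9 of the 35, against 26.1% of all tested genes. ETFA, ECI2 and ABCD3 were higher in the second set, by 0.98, 0.84 and 0.63 on the log2 scale in a fit with the group and the set. PEX10, ACOX2, ACADVL, DECR1, PEX19 and PEX3 were lower, by log2 differences of -1.07, -0.99, -0.97, -0.97, -0.39 and -0.25. The split thus ran through both organelles, with 3 of 16 mitochondrial and 6 of 18 peroxisomal genes in it, and through partners such as ETFA and ETFB. With the set as a term, CAT kept the largest fold change of the 35 (0.72), followed by PEX11A (0.42), and ETFA was at -0.0060.

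**Figure D3:**
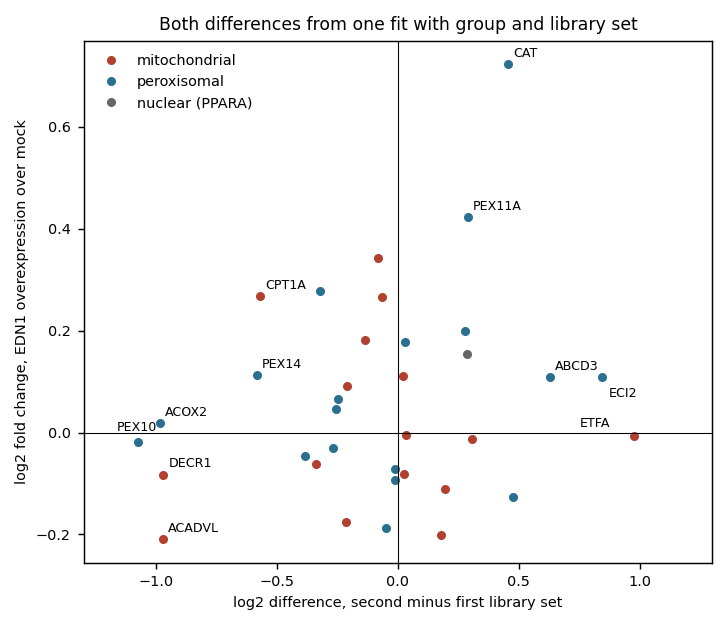
Each point is a tested gene. The horizontal axis is its log2 difference between the second and first library sets and the vertical axis its log2 fold change, EDN1 overexpression over mock, both from a single fit. The genes furthest left (PEX10 at -1.07) and right (ETFA at 0.98) lie near 0 on the vertical axis, while CAT lies highest at 0.72.

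Averaged over its 16 tested genes, the mitochondrial group had a centred log2 level of -0.0042 ± 0.11 in EDN1 overexpression and 0.0042 ± 0.074 in mock (SD, n = 4 each). The 18 tested peroxisomal genes averaged 0.041 ± 0.035 in EDN1 overexpression and -0.041 ± 0.057 in mock (SD, n = 4 each), and EDN1 overexpression 3 lay below the 2 highest mock libraries. This average includes the 2 largest peroxisomal log2 fold changes, CAT at 0.82 and PEX11A at 0.49. Of the 18 genes 7 were positive and 11 negative, with a median of -0.0094, so the average does not describe a rise shared by the group. Summed over all 18 mitochondrial genes, the counts made up 1925 to 2181 CPM of the library total in EDN1 overexpression and 1766 to 2093 CPM in mock. The 20 peroxisomal genes summed to 488 to 554 CPM in EDN1 overexpression and 443 to 489 CPM in mock. The peroxisomal sums overlapped only in that EDN1 overexpression 4 lay below mock 1, and the mitochondrial sums overlapped widely. Unlike the CPM of single genes, these sums leave out the TMM scaling factors. Those ran from 0.95 to 1.05 in EDN1 overexpression and from 0.96 to 1.03 in mock, so which libraries overlap depends on the scaling.

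**Figure D4:**
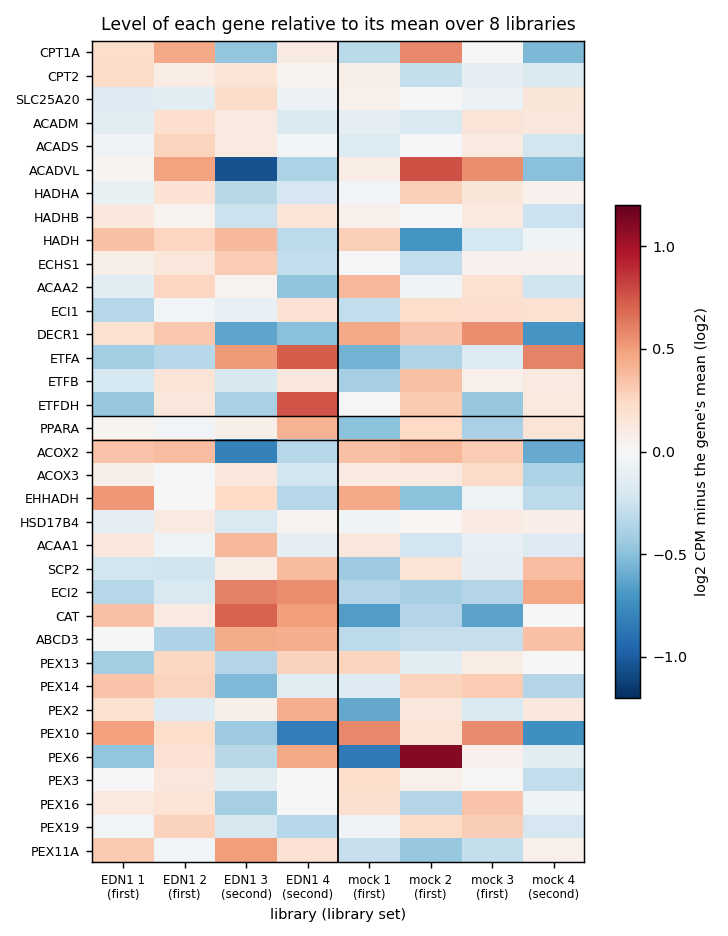
Level of each tested gene (rows, with lines around PPARA) in each library (columns, EDN1 overexpression left of the line, library set in brackets), as log2 CPM minus the gene's mean over the 8 libraries. CAT is higher in all 4 EDN1 overexpression libraries than in any mock library. DECR1, ACOX2 and PEX10 are lower in EDN1 3, EDN1 4 and mock 4.

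The wider pathway was read from 7 lists of other genes, of which 97 genes passed the low count filter and 18 did not. By edgeR, 0 of the 97 passed an adjusted p of 0.05. An unadjusted edgeR p under 0.05 was seen in 3 of the 97, against 2.85% of all tested genes. The median log2 fold change was 0.075, with 60 positive and 37 negative (61.9% positive, against 50.3% of all tested genes). Up to 2 genes of each list, those with the smallest p, are named here, and since they were picked by p their values are among the larger of each list. Of other known PPARA targets, 4 of 8 were positive. APOA5, which raises triglyceride clearance, had 22.1, 34.8, 22.9 and 25.4 CPM in EDN1 overexpression 1 to 4, against 13.2, 21.0, 16.3 and 17.1 CPM in mock 1 to 4. The APOA5 groups did not overlap, which held for 1 of the 97 genes, against 2.04% of all tested genes. Its log2 fold change was 0.64 (SE 0.20, edgeR p 0.00982 unadjusted and 1 adjusted). PLIN2, which coats lipid droplets, was at -0.21 (SE 0.17).

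Of other peroxisomal enzymes, 17 of 26 were positive. The reductase gene DHRS4, whose close relatives could share its reads, was at 0.51 (SE 0.23) and GSTK1, a glutathione transferase, at 0.29 (SE 0.16). Of other peroxins and transporters, 8 of 11 were positive. The division factor FIS1 was at 0.25 (SE 0.18).

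Of other mitochondrial oxidation genes, 14 of 19 were positive, led by MLYCD, which removes the malonyl-CoA that blocks CPT1A, at 0.42 (SE 0.21), and the coenzyme A carrier SLC25A42 at 0.49 (SE 0.30). Of ketone and acetate genes, 4 of 5 were positive, with ACSS1 at 0.30 (SE 0.15) and BDH1 at 0.38 (SE 0.23). Of the fatty acid activating enzymes, 5 of 8 were positive, with ACSL5 at -0.70 (SE 0.37), which was -0.28 without mock 2, and ACSM3 at -0.21 (SE 0.23). Of the regulators, 8 of 20 were positive, with ACACB, which makes the malonyl-CoA beside CPT1A, at 0.62 (SE 0.25) and the deacetylase gene SIRT1 at -0.40 (SE 0.19).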

How the data were processed

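RNA of 8 HepG2 libraries was sequenced after QuantSeq preparation, per the labels' protocols. The authors deposited unnormalised whole-number counts for each gene. Per the submitters' processing notes the tools were Bowtie2 and edgeR and the build hg19; versions, counter, filters and strand use are unstated. GENCODE places exons of a gene on the other strand over the ends of ACAA1, CPT2, ETFB, ETFDH, PEX10 and PEX6, whose reads cannot be told apart from those of that gene if strand was not used in counting, and it lists processed pseudogenes of HADHA and SLC25A20. The deposited gene length was not used.

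The table had 25737 rows. Rows that share a symbol were added up, with MARCH1 and MARCH2 kept as separate rows, and 12577 of 24462 genes passed filterByExpr (minimum count 10). Groups were compared by quasi-likelihood F tests in edgeR 4.0.16 under R 4.3.3 (TMM scaling, group only, threshold 0.05, Benjamini-Hochberg over all tested genes). Standard errors are the fold change over the square root of F. CPM use TMM-scaled library sizes, except sums and limits, which use library totals. Library sets came from average linkage on correlations of centred log2 CPM (prior count 2). k-means gave the same sets, whereas complete linkage on Euclidean distance put EDN1 4, mock 2 and mock 4 together. Alternatives used DESeq2 1.42.0 and limma 3.58.1. The code was tested on simulated data. It called 2 of 50 genes given a 1.5-fold change and 22 of 50 given a 2-fold change, with 10 false calls. No 2 libraries agreed within sampling noise (chi-square per degree of freedom at least 6.38).

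The genes, lists and alternatives were chosen with earlier results of these data known. All 39 genes are named, and of each further list the 2 with the smallest p, except 1 gene that is not reported here. Protein sequences were not used here.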

Additional observations from a re-analysis of the deposited data

Results flagged for a closer look

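In 4 of 70 groups of 4 libraries checked, a single library stood far from the other 3, where chance gives about 1 in 20 groups. ECI1 was at 111 CPM in mock 1, against 154 to 158 CPM in the other mock libraries. In mock 4, ACOX2 was at 2.56 CPM, against 4.98 to 5.31 CPM in the other mock libraries. ECI2 was at 70.3 CPM in mock 4, against 38.5 to 39.96 CPM, and ABCD3 at 61.8 CPM in mock 4, against 38.9 to 40.02 CPM. Mock 4 is the only mock library of the second library set, and its part in these values was not tested.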

How the results depend on the processing

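Over the 18 alternatives, 0 of the 35 tested genes were called in any, and EDN1 was called in all. DESeq2 called 3 genes in all, 2 higher and 1 lower, against 1 in every other setting. The number of all genes with an unadjusted p under 0.05, 359, was 184 without EDN1 overexpression 3, 738 without EDN1 overexpression 4 and 45 in the second library set alone. CAT had an unadjusted p under 0.05 in 17 of the 18 and PEX11A in 11, and PEX11A lost it in each library set alone and without EDN1 overexpression 1 or 3 or mock 1, 2 or 3. By edgeR, DECR1 and ECI2 also had an unadjusted p under 0.05 without mock 4, as did PEX5 without the low count filter. The correlations of deviations for equal replicate numbers were 0.477, 0.151, -0.149 and 0.528. EDN1 overexpression 1 and 4 correlated best with the mock library of their own number, 2 with mock 3 (0.425) and 3 with mock 4 (0.521). Against mock 4, EDN1 overexpression 1 and 2 were at -0.629 and -0.651. The correlations thus also follow the library sets and cannot decide whether the replicate numbers pair the libraries. With the replicate block 1 gene was called, and 550 had an unadjusted edgeR p under 0.05 against 359 without it. The median log2 fold change of the peroxisomal genes, -0.0094, was 0.056 with the library set as a term, 0.11 in the second set alone and -0.076 (without mock 4) to 0.055 (without mock 2) with single libraries left out. That of the mitochondrial genes, 0.019, ran from -0.040 to 0.040.

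Fold changes of 18 of the 35 genes changed sign in an alternative, none from further than 0.34 on the log2 scale, and such values are not distinguishable from 0 here. With limma voom the log2 fold changes that changed sign were ACADM -0.00041, ETFDH -0.022, ACOX3 0.00011 and PEX3 0.011. With the library set as a term they were ACADM -0.0051, ETFA -0.0060, ETFDH -0.013, ACOX2 0.018, ACOX3 0.046, PEX14 0.11 and PEX3 0.066. In the first set alone they were ETFA -0.024, ETFDH -0.12, ACOX2 0.0058, PEX14 0.16 and PEX16 0.042. In the second set alone they were ACADM -0.17, ECHS1 -0.026, ACAA2 0.032, DECR1 0.13, ACOX2 0.037, ACOX3 0.34, PEX14 0.016, PEX10 0.11, PEX6 0.24 and PEX3 0.23. With the replicate block they were SCP2 0.0043 and PEX3 0.0052. PEX3 was at 0.0040 with upper quartile scaling, 0.0012 with a minimum count of 30 and 3.0e-05 with DESeq2. With single libraries left out, the ranges that crossed 0 were -0.020 to 0.38 for CPT1A, -0.069 to 0.058 for ACADM, -0.037 to 0.12 for HADHB, -0.20 to 0.040 for ETFB, -0.24 to 0.23 for ETFDH, -0.39 to 0.012 for ACOX2, -0.15 to 0.042 for ACOX3, -0.15 to 0.13 for SCP2, -0.21 to 0.019 for PEX13, -0.14 to 0.14 for PEX14, -0.46 to 0.28 for PEX6, -0.094 to 0.077 for PEX3 and -0.20 to 0.031 for PEX16. The cause was not tested.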
